A study of Mus musculus with 18 samples.

Results

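The proteasome genes described here are the rows of the deposited mouse gene table whose symbol begins with Psma to Psmg followed by a digit, which gave 55 of 36172 rows. Of these, 49 are protein-coding genes and 6 are pseudogenes (Psmb5-ps, Psmb6-ps, Psmb6-ps2, Psmb7-ps1, Psmb7-ps2 and Psme2b-ps), which had no count in any of the 17 libraries used. All 49 protein-coding members passed the filter on low counts and were tested, Psma8 only through its positive fraction groups. They comprise 14 subunits of the constitutive 20S core, 17 subunits of the 19S regulatory particle, 7 assembly factors, the immunoproteasome set (Psmb8, Psmb9, Psmb10, Psme1 and Psme2), the activators Psme3 and Psme4, the inhibitor Psmf1, the testis subunit Psma8, the thymic subunit Psmb11, and Psmc3ip, which shares the symbol pattern but is a cofactor of meiotic recombination and no proteasome subunit.

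RNA was sequenced from the brains of 9 Cx3cr1-Cre/Ert2+; NuTRAP+ mice (6 female, 3 male), all given tamoxifen at about 3 months of age. NuTRAP is a reporter that, once Cre has acted, tags ribosomes with EGFP, so that an anti-GFP pull-down (the positive fraction) holds ribosome-bound RNA of the recombined cells, whereas the input is RNA of the whole lysate of a half-brain taken before the pull-down. Lipopolysaccharide (LPS), a bacterial cell wall component that evokes systemic inflammation, was injected intraperitoneally at 5 mg/kg into 5 mice and PBS into 4 mice, and brains were taken 24 h later. The groups used were Input PBS (animals 268, 272, 273 and 506), Input LPS (266, 267, 270 and 507), Positive PBS (268, 272, 273 and 506) and Positive LPS (266, 267, 270, 271 and 507). Animals 267, 272 and 273 were male, so the sexes were uneven between the treatments. Cx3cr1 is also active in other macrophages and in blood monocytes. The study waited 3 to 4 weeks after tamoxifen so that short-lived labelled monocytes would be replaced. All animals of both treatments carried the transgenes and received tamoxifen.

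The proteasome degrades proteins tagged with ubiquitin. Its barrel-shaped 20S core is built of stacked rings of alpha and beta subunits, and the peptide-cutting sites lie on the beta subunits Psmb5, Psmb6 and Psmb7. A 19S particle caps the barrel, binds ubiquitin chains and unfolds the substrate with a ring of ATPases. Under interferon signalling the catalytic subunits are exchanged for Psmb8 (in place of Psmb5), Psmb9 (Psmb6) and Psmb10 (Psmb7), and the PA28 cap of Psme1 and Psme2 can take the place of 19S. The resulting immunoproteasome is known for shaping the peptides shown on MHC class I, and microglia are among the brain cells that can present such peptides.

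Library totals of the 17 libraries ran from 22968939 to 35123345 estimated counts, and the input library of LPS animal 271 held 1252 counts (4.0 of them on the members), so it was left out. All 8 microglia markers (Cx3cr1, P2ry12, Tmem119, C1qa, Aif1 and Csf1r among them) were higher in the positive fraction than in input, by a log2 difference of 4.00 to 4.43 in PBS and 3.67 to 4.37 in LPS animals, and all 5 oligodendrocyte markers were lower. The summed level of 5 neuronal markers was 157316 to 167620 normalised counts in Input PBS and 164644 to 188095 in Positive PBS, and of these markers 2 were higher and none was lower in the positive fraction in each treatment. Of 5 astrocyte markers, 2 were lower in the positive fraction in PBS and 3 in LPS animals, and of 5 endothelial markers 4 were higher in both treatments. Of 3 monocyte markers tested, 2 were higher and 1 was lower in Positive PBS than in Input PBS. Ccr2, among the higher ones, passed the filter on low counts only through Positive PBS. A normalised count is an estimated count divided by the library's size factor, and fewer cells of a type and less RNA per cell cannot be told apart in such bulk libraries.

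The promoter sequences of the 5 immunoproteasome genes and of Psmb5 and Psmb6 are given because these are the exchange partners on which the comparisons below turn. Each runs 5′ to 3′ on the gene's own strand from 250 bases before the RefSeq transcription start (GRCm38.p6) to 30 bases after it, and capitals mark the motif matches described after them. Psmb7 had no entry.

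Psmb8, chr17:34197945-34198224, plus strand: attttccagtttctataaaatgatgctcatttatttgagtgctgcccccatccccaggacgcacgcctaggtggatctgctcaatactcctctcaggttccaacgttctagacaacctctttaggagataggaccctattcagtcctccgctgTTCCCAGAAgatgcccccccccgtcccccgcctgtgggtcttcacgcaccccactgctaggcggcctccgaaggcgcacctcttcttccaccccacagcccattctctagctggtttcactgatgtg
Psmb9, chr17:34187301-34187580, minus strand: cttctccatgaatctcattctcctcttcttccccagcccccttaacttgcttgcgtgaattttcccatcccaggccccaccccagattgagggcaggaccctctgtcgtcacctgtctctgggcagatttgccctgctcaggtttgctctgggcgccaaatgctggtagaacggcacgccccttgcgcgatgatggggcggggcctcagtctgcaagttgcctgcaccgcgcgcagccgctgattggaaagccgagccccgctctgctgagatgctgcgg
Psmb10, chr8:105938363-105938642, minus strand: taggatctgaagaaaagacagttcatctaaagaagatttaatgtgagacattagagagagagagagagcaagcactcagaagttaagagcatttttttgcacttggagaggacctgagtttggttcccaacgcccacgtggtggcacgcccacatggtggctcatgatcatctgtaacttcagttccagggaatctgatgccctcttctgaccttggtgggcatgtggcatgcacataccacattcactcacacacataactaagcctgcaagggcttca
Psme1, chr14:55578244-55578523, plus strand: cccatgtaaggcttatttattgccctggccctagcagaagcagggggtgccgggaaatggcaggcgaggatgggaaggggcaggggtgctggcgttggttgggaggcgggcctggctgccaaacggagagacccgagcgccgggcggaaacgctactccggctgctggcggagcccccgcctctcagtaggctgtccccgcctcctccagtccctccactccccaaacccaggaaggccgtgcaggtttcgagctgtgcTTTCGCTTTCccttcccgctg
Psme2, chr14:55591072-55591351, minus strand: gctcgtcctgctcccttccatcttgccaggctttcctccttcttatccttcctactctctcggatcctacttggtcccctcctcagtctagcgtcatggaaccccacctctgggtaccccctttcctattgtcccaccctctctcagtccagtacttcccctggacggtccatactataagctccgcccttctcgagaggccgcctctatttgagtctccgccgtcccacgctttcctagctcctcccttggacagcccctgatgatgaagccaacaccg
Psmb5, chr14:54617966-54618245, minus strand: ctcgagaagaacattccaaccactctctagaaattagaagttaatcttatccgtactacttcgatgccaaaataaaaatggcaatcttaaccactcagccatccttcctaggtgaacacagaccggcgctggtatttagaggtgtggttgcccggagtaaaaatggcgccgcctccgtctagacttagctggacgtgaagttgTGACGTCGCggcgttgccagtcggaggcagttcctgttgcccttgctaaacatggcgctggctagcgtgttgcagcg
Psmb6, chr11:70525107-70525386, plus strand: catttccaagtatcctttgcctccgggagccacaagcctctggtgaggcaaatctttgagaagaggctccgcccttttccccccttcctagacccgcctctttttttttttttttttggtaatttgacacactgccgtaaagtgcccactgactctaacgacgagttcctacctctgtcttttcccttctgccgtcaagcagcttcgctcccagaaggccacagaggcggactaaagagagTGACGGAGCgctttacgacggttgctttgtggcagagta

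Psmb9 lies on chromosome 17 back to back with Tap1, the peptide transporter of the MHC class I pathway, and their start sites are 226 bases apart on opposite strands. GAAANNGAAA is an interferon regulatory factor (IRF) type element and was searched on both strands. It was present in 3.28% of 32851 promoter windows (250 bases before to 30 after the start). Of the 41 members that had a window, 5 held it (Psmb3, Psmd4, Psmd9, Psme1 and Psmg4). TTCNNNGAA, a STAT type element that reads alike on both strands, was in 7.83% of windows and in Psmb8, Psmd2 and Psmg1. TGACNNNGC, the core of the antioxidant response element, was in 11.5% of windows and in 6 members (Psmb5, Psmb6, Psmc6, Psmd12, Psmd9 and Psme4). In the printed windows the capitals are therefore the STAT type letters in Psmb8, the IRF type letters on the opposite strand in Psme1, and the antioxidant type letters in Psmb5 and Psmb6, while none of the 3 patterns was in Psmb9, Psmb10 or Psme2. A match is a stretch of letters and was not tested for binding.

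After LPS, proteasome genes rose broadly in the positive fraction. Of the 49 members, 41 (83.7%) were higher in Positive LPS than in Positive PBS at an adjusted p under 0.05 and a level changed by over 25%, against 19.0% of the 14803 genes tested. None was lower, against 14.9% of all genes, also at an unadjusted p under 0.05 and with DESeq2 or limma voom. The median log2 difference of the members was 0.52, beside 0.01 over all genes, and all 49 differences had a positive sign. In input, 4 members (8.16%) were higher after LPS, against 7.16% of all genes, and all 4 belonged to the immunoproteasome set. No member was lower in input with edgeR, at an unadjusted p under 0.05, or with DESeq2 or limma voom, against 5.26% of all genes. The members' median in input was 0.12, beside 0.00 over all genes, and 14 were higher at an unadjusted p under 0.05. As a share of the library total, the members took 0.345 to 0.416% in Input PBS, 0.406 to 0.426% in Input LPS, 0.4 to 0.45% in Positive PBS and 0.585 to 0.684% in Positive LPS. The Positive LPS range lies above those of the other 3 groups, which touch or overlap.

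**Figure D1:**
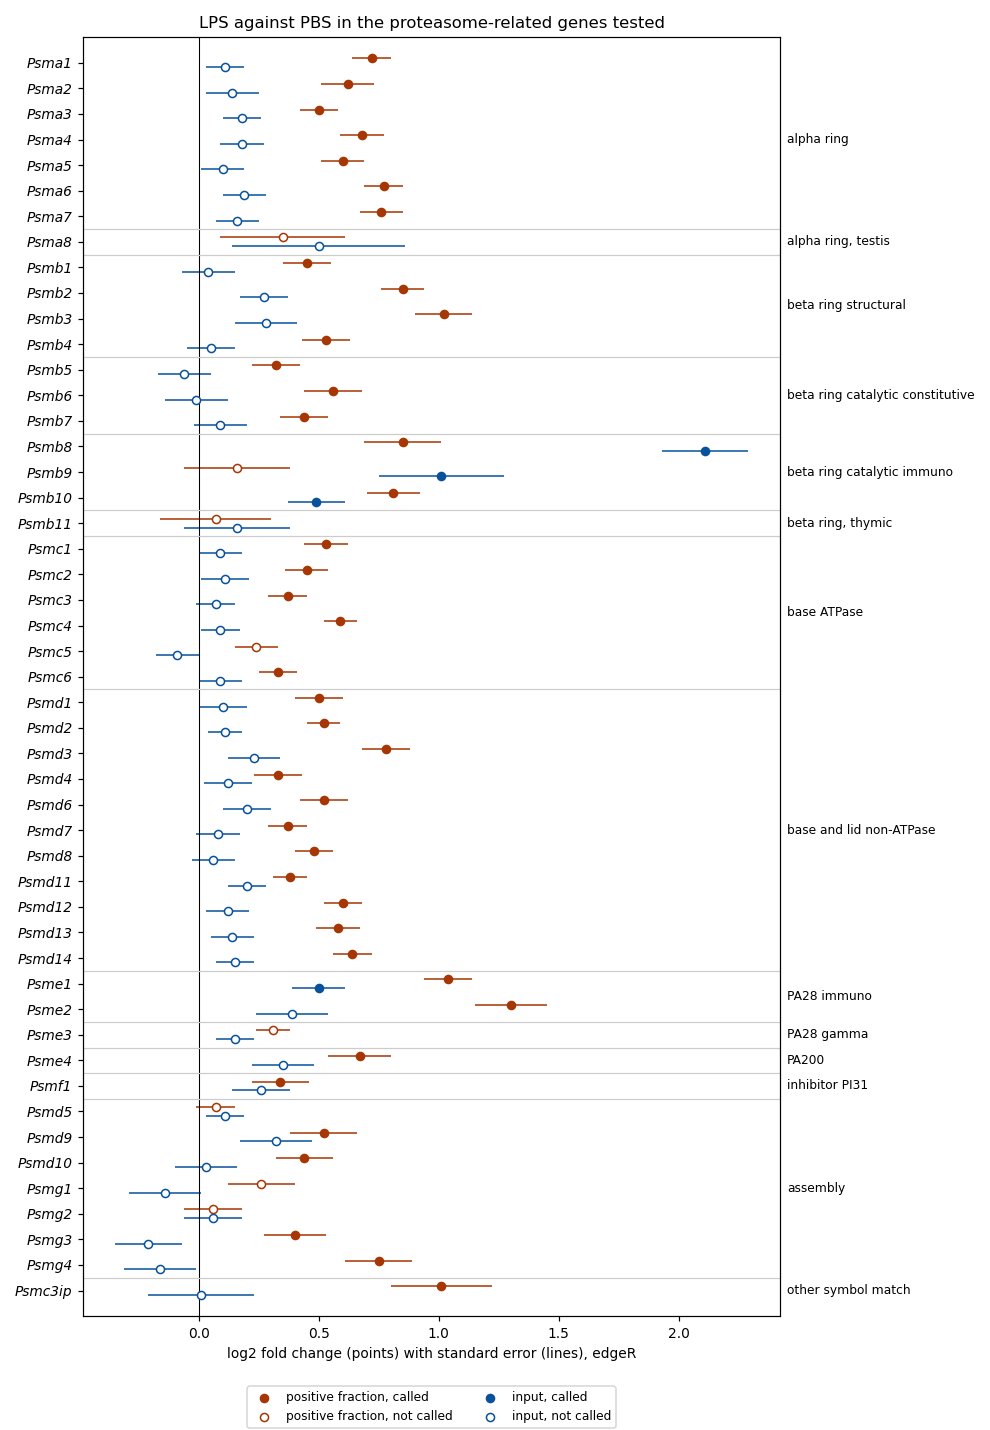
LPS effect (log2 difference LPS minus PBS, edgeR, with its standard error) of each tested proteasome gene in the positive fraction and in input, ordered by role. In the positive fraction 41 of 49 members were called higher, in input 4, and the largest effect of all is that of Psmb8 in input (2.11).

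Psmb8, the immunoproteasome counterpart of Psmb5, had the largest LPS effect among the members in input. It stood at 108, 148, 109 and 121 normalised counts in Input PBS (animals in the order given above) and at 672, 533, 364 and 534 in Input LPS. In the positive fraction it was at 1352, 1446, 1436 and 1618 in PBS and at 2659, 2836, 1814, 2784 and 3087 in LPS. Every LPS library exceeded every PBS library of its fraction, and the lowest LPS value came from animal 270 in both. The log2 difference was 2.11 in input (SE 0.18, 4.32-fold, adjusted p = 3.23e-07) and 0.85 in the positive fraction (SE 0.16, 1.80-fold, adjusted p = 2.97e-04).

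Psmb9, the counterpart of Psmb6, rose in input and was not called in the positive fraction. Its values were 37.2, 53.5, 36.6 and 42.6 in Input PBS, and 113, 102, 52.5 and 77.9 in Input LPS. The positive fraction held 349, 394, 356 and 530 in PBS and 415, 537, 316, 366 and 638 in LPS. In both fractions the ranges overlapped, in input through animal 270 alone. The input difference was 1.01 (SE 0.26, adjusted p = 0.0148) and lost its call with limma voom (adjusted p = 0.0932), with the animal as a random replicate block (0.91, adjusted p = 0.108) and without the Input LPS library of animal 266 (adjusted p = 0.0569). The positive fraction difference was 0.16 (SE 0.22, 95% interval -0.30 to 0.62, adjusted p = 0.585).

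Psmb10, the counterpart of Psmb7, rose in both fractions. Input PBS held 692, 1006, 855 and 692 normalised counts and Input LPS 1056, 1293, 1116 and 1089. Positive PBS held 1491, 1702, 1744 and 1626 and Positive LPS 2799, 3124, 2357, 2981 and 3111. The groups did not overlap in either fraction, and the gap was narrow in input. The difference was 0.49 in input (SE 0.12, adjusted p = 0.00868) and 0.81 in the positive fraction (SE 0.11, adjusted p = 1.77e-05).

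The PA28 genes had the 2 largest LPS effects among the members in the positive fraction. Psme2, its beta subunit, was at 1314, 1472, 1588 and 1834 in Positive PBS and at 4035, 4095, 2691, 4343 and 3974 in Positive LPS. Psme1, the alpha subunit, was at 2434, 2680, 2677 and 2637 in Positive PBS and at 4773, 5713, 4571, 6197 and 5585 in Positive LPS. Neither gene's groups overlapped, and the lowest LPS library was again that of animal 270. The differences were 1.30 for Psme2 (SE 0.15, 2.47-fold, adjusted p = 1.93e-06) and 1.04 for Psme1 (SE 0.10, 2.06-fold, adjusted p = 3.54e-07). In input Psme1 lay between 800 and 1060 in PBS animals and between 1118 and 1468 after LPS, a difference of 0.50 (SE 0.11, adjusted p = 0.00348). Psme2 ranged from 578 to 817 in Input PBS and from 750 to 1045 in Input LPS, and its difference of 0.39 was not called (SE 0.15, 95% interval 0.07 to 0.72, adjusted p = 0.0996).

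**Figure D2:**
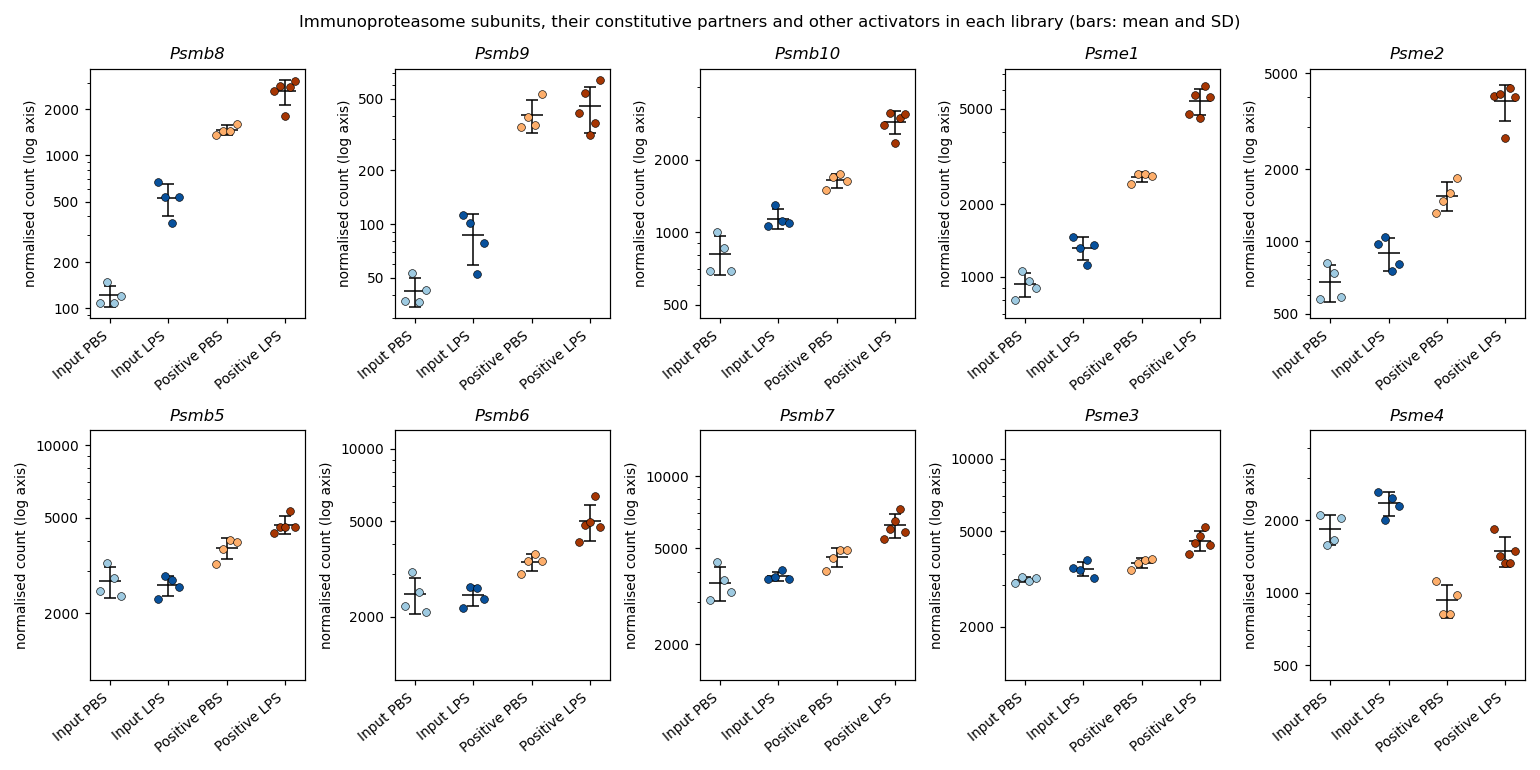
Normalised counts (log axis) of the immunoproteasome genes, their constitutive partners and the other activators in each library of the 4 groups; each point is a library and the bars are the group mean and SD. Psmb8 runs from 108 to 148 in Input PBS and from 1814 to 3087 in Positive LPS, whereas the Positive PBS and Positive LPS points of Psmb9 overlap.

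The constitutive catalytic subunits also rose in the positive fraction. Psmb5, which carries the chymotrypsin-like site, was at 3205, 3699, 4037 and 3969 in Positive PBS and at 4313, 4569, 4569, 5337 and 4548 in Positive LPS. Psmb6, the caspase-like subunit, was at 3021, 3407, 3658 and 3417 in Positive PBS and at 4089, 4831, 4944, 6369 and 4712 in Positive LPS. Psmb7, the trypsin-like subunit, was at 4012, 4562, 4926 and 4936 in Positive PBS and at 5463, 6040, 6500, 7313 and 5845 in Positive LPS. All 3 rose without overlap, and animal 271 had the highest value of each. The differences were 0.56 for Psmb6 (SE 0.12, adjusted p = 0.00128), 0.44 for Psmb7 (SE 0.10, adjusted p = 0.00269) and 0.32 for Psmb5 (SE 0.10, adjusted p = 0.015), the last just past the fold threshold. In input, where the ranges overlapped, none was called, with differences of -0.01 for Psmb6 (SE 0.13, adjusted p = 0.968), 0.09 for Psmb7 (SE 0.11, adjusted p = 0.627) and -0.06 for Psmb5 (SE 0.11, adjusted p = 0.772).

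Set against its constitutive partner, each catalytic immunoproteasome gene took a different share of the pair. On a scale of normalised counts per kilobase of transcript, Psmb8 made up 2.42% ± 0.27 (SD, n = 4) of the sum of Psmb8 and Psmb5 in Input PBS and 10.1% ± 2.98 (n = 4) in Input LPS. In the positive fraction its share was 17.9% ± 1.07 (n = 4) in PBS and 23.7% ± 3.65 (n = 5) in LPS. The share was thus higher in the positive fraction of PBS animals (16.4 to 18.9%) than in any Input LPS library (6.81 to 14%). Psmb10 made up 16.6% ± 0.593 and 20.8% ± 1.56 of its pair with Psmb7 in Input PBS and Input LPS, and 24% ± 1.05 and 29.1% ± 3.46 in Positive PBS and Positive LPS. Psmb9 had the smallest share, 1.01% ± 0.138 and 2.06% ± 0.753 in the inputs and 6.64% ± 1.24 and 5.22% ± 1.74 in the positive fractions of PBS and LPS animals. In the positive fraction the PBS and LPS shares overlapped for Psmb8 (16.4 to 18.9% and 18 to 27.3%), for Psmb9 (5.43 to 8.38% and 3.28 to 7.41%) and for Psmb10 (22.6 to 24.8% and 24.3 to 32%). Shares of the pair of Psme1 with Psme3, the nuclear PA28 gamma subunit, were 41.4% ± 2.37, 47.4% ± 4.16, 62.9% ± 0.575 and 73.7% ± 2.37 in the 4 groups in the same order.

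**Figure D3:**
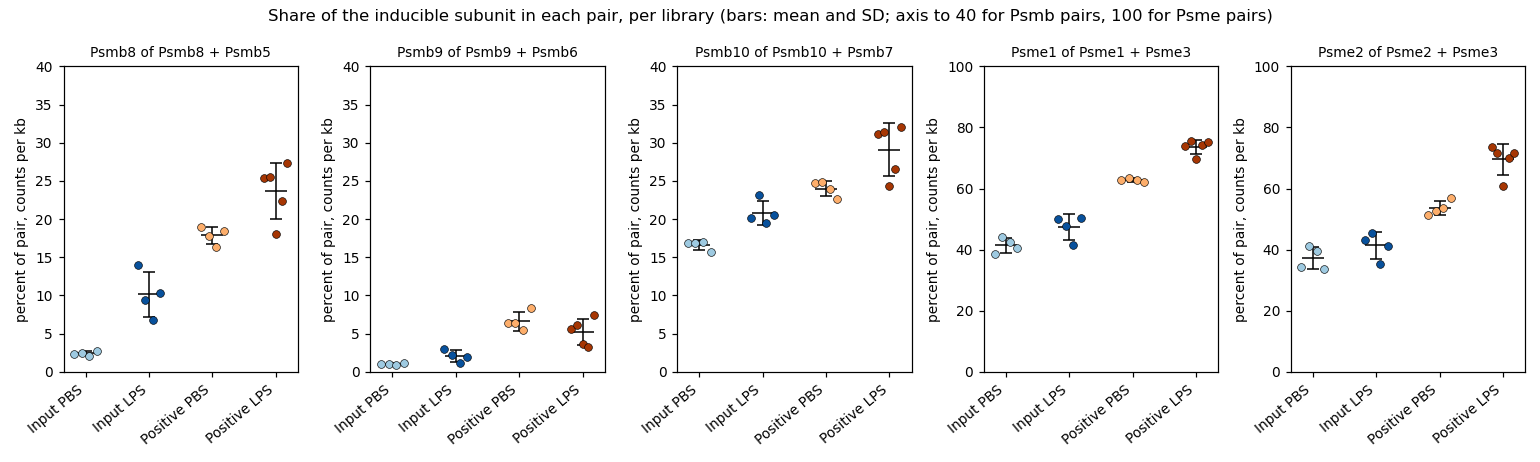
Share of each immunoproteasome gene in the sum of a pair, in percent of normalised counts per kilobase, for each library (points) with the group mean and SD. Psmb8, Psmb9 and Psmb10 are paired with their constitutive partners, and Psme1 and Psme2 with Psme3, which is not an exchange partner. Psmb8 rises from 2.42% in Input PBS to 23.7% in Positive LPS, and Psmb9 stays at or under 8.38% in every library.

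Per kilobase the 3 constitutive catalytic genes stood at like levels in Input PBS (Psmb5 3022 ± 444, Psmb6 3108 ± 542 and Psmb7 3102 ± 507 normalised counts per kilobase, SD, n = 4) and do not differ there beyond their spread. The core subunits as a whole ranged in Input PBS from 797 (Psma2) to 3404 (Psmb4) normalised counts per kilobase. Psmb8 stood at 74.8 ± 11.4 in Input PBS and at 1619 ± 298 (n = 5) in Positive LPS on the same scale, below Psmb5 at 5192 ± 433 (n = 5) in the latter. Psme1 reached 4827 in Positive LPS, beside 1715 for Psme3.

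The other members of the 20S core rose together in the positive fraction. All 14 constitutive core genes (7 alpha, 4 structural beta and 3 catalytic beta subunits) were higher after LPS there with a median difference of 0.61, and none was called in input with edgeR, where the median was 0.12 and 4 were higher at an unadjusted p under 0.05. The members that DESeq2 (4) or limma voom (3) called in input were likewise all of the immunoproteasome set. Among the alpha subunits, which form the gate of the barrel, the differences ran from 0.50 (Psma3) to 0.77 (Psma6, adjusted p = 9.87e-07). Psma6 ranged from 2634 to 3214 in Positive PBS and from 4456 to 5483 in Positive LPS. Psma7, the alpha subunit with the most counts per kilobase, rose by 0.76 (adjusted p = 2.25e-06) from a range of 2938 to 3474 to one of 4862 to 6216. Psma1 rose by 0.72 (adjusted p = 8.45e-07).

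Among the structural beta subunits Psmb3 was the most raised. It was at 1850, 2391, 2222 and 2167 in Positive PBS and at 3537, 4062, 4487, 5600 and 4245 in Positive LPS. The LPS libraries lay above all PBS libraries, with a difference of 1.02 (SE 0.12, 2.03-fold, adjusted p = 4.29e-06), and in input the difference of 0.28 was not called (adjusted p = 0.156). Psmb2 rose by 0.85 (adjusted p = 9.43e-07), Psmb4 by 0.53 (adjusted p = 2.98e-04) and Psmb1 by 0.45 (adjusted p = 0.00171) in the positive fraction.

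Of the 17 genes of the 19S particle, 16 were higher after LPS in the positive fraction (median 0.50) and none was called in input with edgeR (median 0.11, 2 higher at an unadjusted p under 0.05). All 11 non-ATPase subunits were called there, led by Psmd3, a scaffold subunit of the lid, with a difference of 0.78 (adjusted p = 1.22e-05) between 3891 to 4605 in PBS and 6351 to 9305 in LPS. Psmd14, the deubiquitinase that removes ubiquitin chains at the pore, rose by 0.64 (adjusted p = 6.47e-06). Psmd2, the base scaffold, rose by 0.52 from 7747 to 8814 in PBS to 10811 to 13500 in LPS (adjusted p = 1.48e-05). Psmd4, a ubiquitin receptor, showed the smallest called effect of this class at 0.33 (adjusted p = 0.0109), and its ranges overlapped (4187 to 5180 and 4875 to 6470). Of the 6 ATPases that unfold substrates 5 were called, from 0.33 (Psmc6) to 0.59 (Psmc4, adjusted p = 4.90e-06). Psmc5 went against the rest of its class only in that its difference of 0.24 stayed under the fold threshold (adjusted p = 0.0344).

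Of the activators and the inhibitor outside the immunoproteasome set, Psme4 and Psmf1 were called higher after LPS in the positive fraction. Psme4 (PA200), a nuclear cap that binds the core without ATP, was at 1121, 818, 815 and 978 in Positive PBS and at 1845, 1427, 1330, 1334 and 1491 in Positive LPS. It rose by 0.67 without overlap (SE 0.13, adjusted p = 3.70e-04), and in input its difference of 0.35 was not called (adjusted p = 0.0797). Psmf1 (PI31), an inhibitor of the core in vitro, rose by 0.34 (adjusted p = 0.0264) in the positive fraction, with overlapping ranges of 1211 to 1335 and 1253 to 2012. This call of Psmf1 was lost in 9 of 30 alternatives. Psme3 was also higher there without overlap, at 3450 to 3841 in PBS and 4016 to 5182 in LPS. Its difference of 0.31 at 1.24-fold lay under the fold threshold (SE 0.07, adjusted p = 0.00268) and was called in 7 of 30 alternatives.

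Among the 7 assembly factors 4 were called in the positive fraction. Psmg4, a chaperone of alpha ring assembly, ranged from 162 to 242 in Positive PBS and from 303 to 395 in Positive LPS, a rise of 0.75 (adjusted p = 3.24e-04). Psmd9, Psmd10 and Psmg3 rose by 0.52, 0.44 and 0.40 (adjusted p = 0.00731, 0.00942 and 0.0236). The partner chaperones Psmg1 and Psmg2 had differences of 0.26 and 0.06 and Psmd5, a chaperone of the base, 0.07, none of them called.

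Psmc3ip, Psma8 and Psmb11 stand apart from the somatic proteasome. Psmc3ip, the recombination cofactor, ranged from 46.6 to 72.3 in Positive PBS and from 116 to 132 in Positive LPS, and its difference of 1.01 was called (SE 0.21, adjusted p = 9.41e-04). Psma8, the testis counterpart of Psma7, was at 36.6 to 62.0 in Positive PBS and 53.0 to 89.5 in Positive LPS and was not called (0.35, adjusted p = 0.294). Psmb11, the catalytic subunit of the thymic proteasome, was at 25.6 to 49.0 and 27.3 to 44.5 (0.07, adjusted p = 0.838).

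Levels differed between libraries of a group in many members at once. Animal 271 had the highest Positive LPS value in 34 of the 49 members and animal 266 the lowest in 30. Animal 270 was lowest in 12, among them all 5 immunoproteasome genes, and in Input LPS it was the lowest for Psmb8, Psmb9, Psme1 and Psme2 as well. In Positive PBS animal 268 was lowest in 42 members. In Input PBS animal 272 was highest in 41 and animal 268 lowest in 31. Leaving out each library in turn gave 35 to 41 members higher in the positive fraction and 3 to 5 in input.

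**Figure D4:**
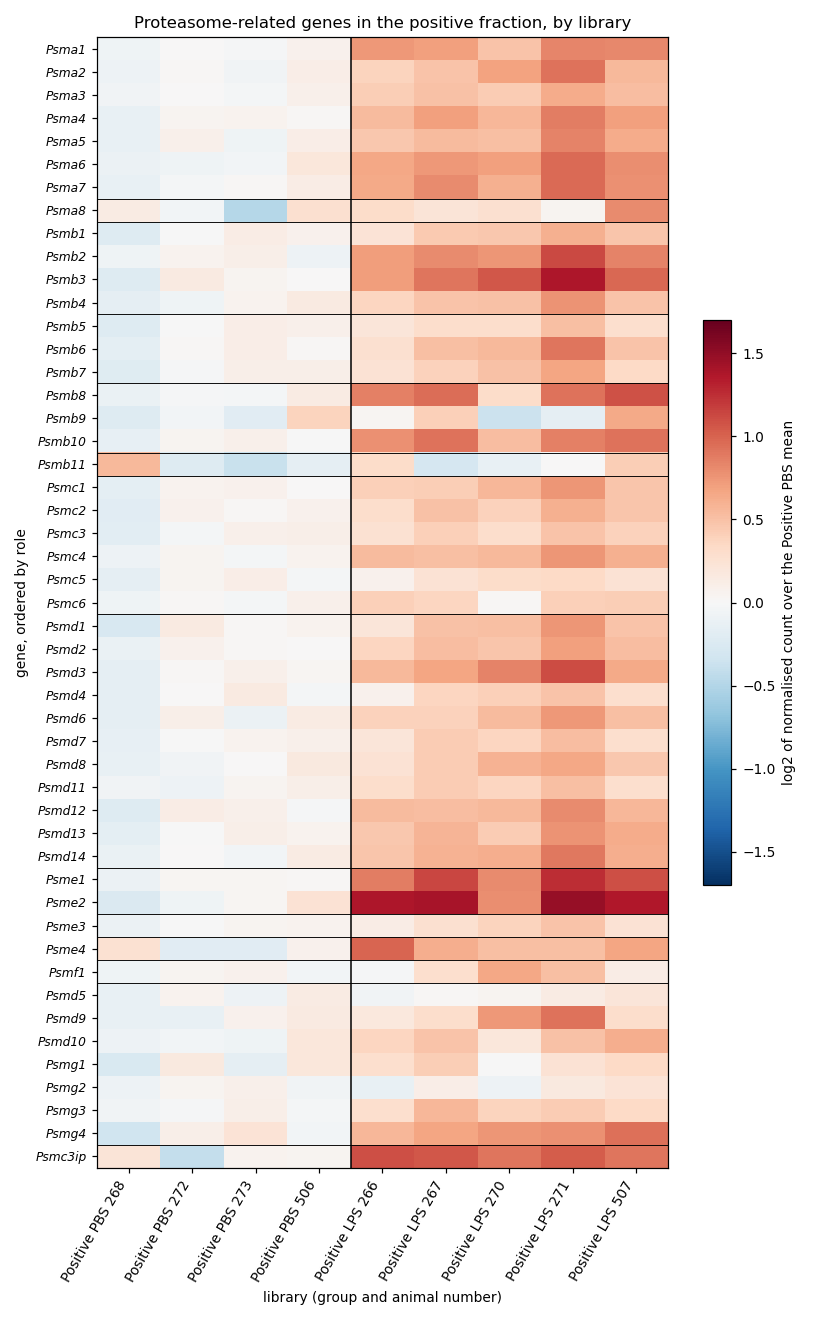
Members by library of the positive fraction, each as the log2 ratio to the gene's mean over the 4 Positive PBS libraries. Animal 271 has the highest value in 34 of 49 members, and the 5 immunoproteasome genes are lowest in animal 270 among the LPS libraries.

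The positive fraction was also compared with the input of the same treatment, and members higher in the positive fraction are termed enriched. This comparison also sets ribosome-bound RNA against whole lysate RNA, and some neuronal and endothelial markers were higher in the positive fraction too. Whether the enrichment came from the Cx3cr1 cells was therefore not tested. In PBS animals 27 members (55.1%) were higher in the positive fraction, against 21.0% of all genes, and 2 (4.08%) were lower, against 18.8%, with a median of 0.34 beside 0.00 over all genes. In LPS animals 45 (91.8%) were higher, against 27.6%, and 2 were lower, against 25.8%, with a median of 0.77 beside -0.03. Enrichment was called in 27 members under both treatments and in 18 after LPS alone, and 2 members were lower under both. The PBS count moved to 15 without animals 506 and 507, against 17.1% of all genes then. With libraries scaled by their totals it was 17, against 15.9%. The LPS comparison of a fraction and the comparison between fractions share libraries, so their counts are not independent.

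**Figure D5:**
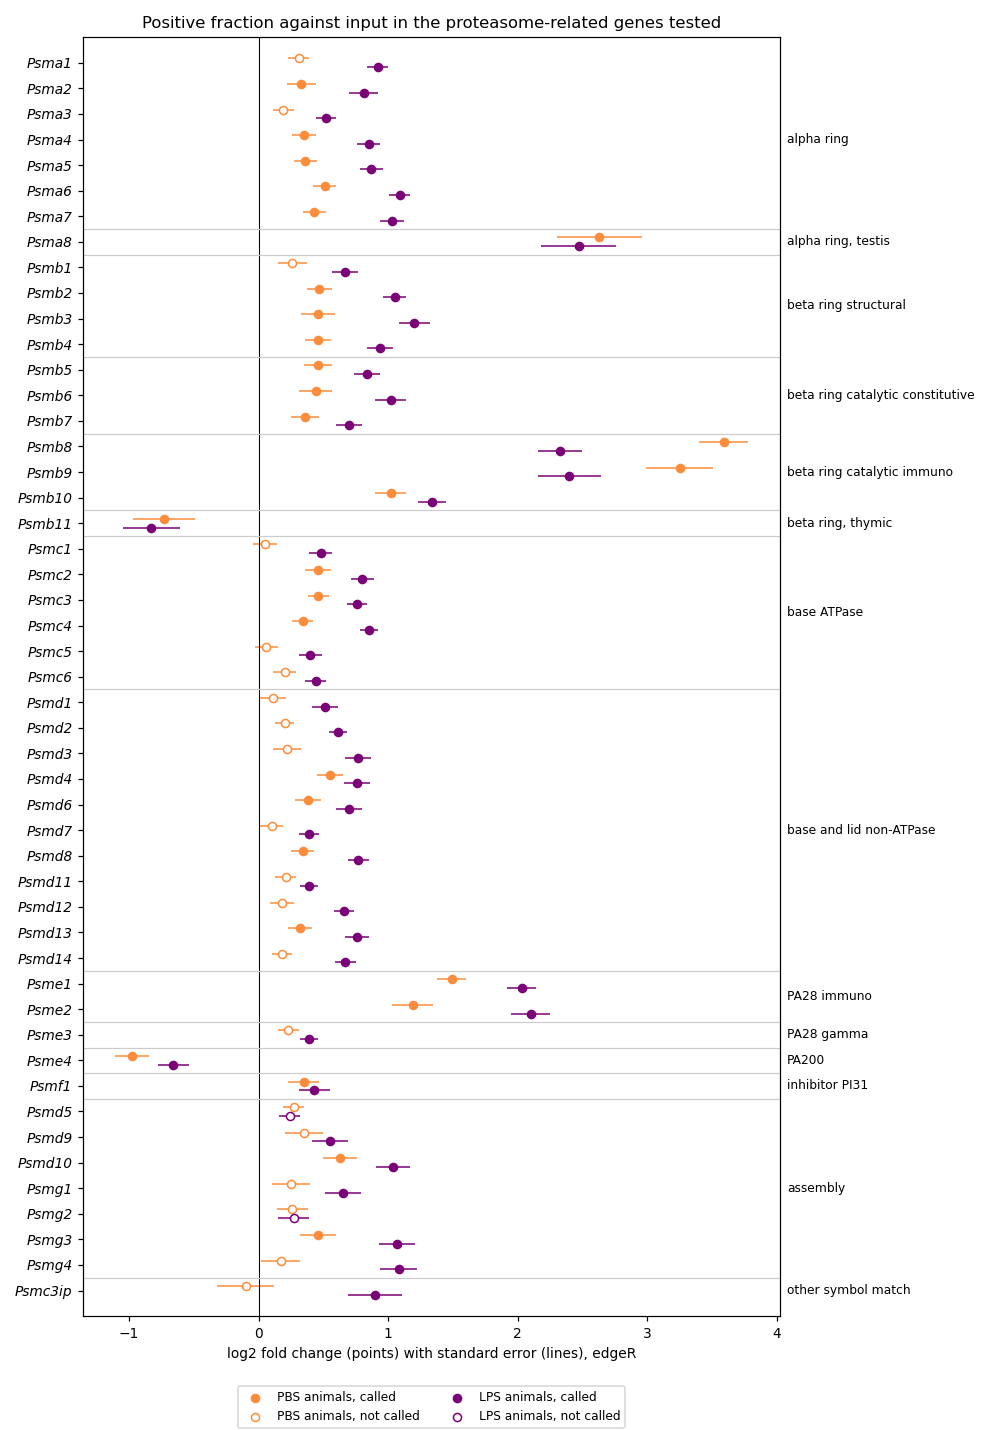
Enrichment of each tested member (log2 difference positive fraction minus input, edgeR, with its standard error) in PBS and in LPS animals, filled where called. All 5 immunoproteasome genes lie above 1 under both treatments, and Psme4 and Psmb11 lie below 0.

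All 5 immunoproteasome genes were enriched under both treatments, with a median of 1.49 in PBS and 2.10 in LPS animals. In PBS animals Psmb8 was enriched by 3.59 (SE 0.19, 12.0-fold, adjusted p = 2.41e-11) and Psmb9 by 3.25 (SE 0.26, 9.52-fold, adjusted p = 1.12e-08). Psme1 was enriched by 1.49 (SE 0.11, adjusted p = 2.44e-09), Psme2 by 1.19 (SE 0.16, adjusted p = 5.78e-06) and Psmb10 by 1.02 (SE 0.12, adjusted p = 1.47e-06). After LPS the order changed, as Psmb9 and Psmb8 stood at 2.40 (SE 0.24, adjusted p = 1.21e-07) and 2.33 (SE 0.17, adjusted p = 1.16e-09), Psme2 at 2.10 (SE 0.15, adjusted p = 1.56e-09), Psme1 at 2.03 (SE 0.11, adjusted p = 1.77e-11) and Psmb10 at 1.34 (SE 0.11, adjusted p = 1.41e-08). The lowest Positive PBS value of Psmb8, 1352, was above its highest Input LPS value, 672.

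Enrichment of the constitutive core was broad and of smaller size. In PBS animals 11 of 14 core genes were higher (median 0.40) and 7 of 17 19S genes (median 0.21), and in LPS animals all 14 (median 0.89) and all 17 (median 0.67). PBS animals showed enrichment of Psmb5 by 0.46 (SE 0.11, adjusted p = 0.00177), of Psmb6 by 0.44 (SE 0.13, adjusted p = 0.00855) and of Psmb7 by 0.36 (SE 0.11, adjusted p = 0.0121). In LPS animals the values were 0.84 (SE 0.10, adjusted p = 1.37e-06), 1.02 (SE 0.12, adjusted p = 1.40e-06) and 0.70 (SE 0.10, adjusted p = 1.59e-05). Psmb3 had the largest enrichment of the constitutive core after LPS, 1.20 (adjusted p = 2.11e-07). Among the assembly factors Psmd10 was the most enriched in PBS animals (0.63, adjusted p = 7.36e-04).

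Psma8 was enriched and Psme4 and Psmb11 were depleted under both treatments. Psma8 was low in input (3.81 to 12.4 in PBS and 8.21 to 15.9 in LPS) and higher in the positive fraction, by 2.63 in PBS (adjusted p = 3.06e-06) and 2.47 in LPS animals (adjusted p = 1.05e-06). Its sequence is close to that of Psma7, and how reads matching both were assigned is not given in the sources used here. Psme4 was at 2097, 1575, 1661 and 2039 in Input PBS and fell by 0.98 in the positive fraction (adjusted p = 7.89e-06), and by 0.66 in LPS animals (adjusted p = 1.47e-04). Psmb11 fell by 0.73 (adjusted p = 0.0167) and 0.83 (adjusted p = 0.00322), at 25.6 to 74.1 normalised counts in all libraries. Enrichment of Psme3 was 0.23 (1.17-fold, adjusted p = 0.0206, not called) in PBS and 0.39 (adjusted p = 1.93e-04) in LPS animals, and that of Psmf1 0.35 (adjusted p = 0.0232) and 0.43 (adjusted p = 0.00354).

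Whether LPS acted differently in the 2 fractions was tested as the LPS effect in the positive fraction minus that in input. Of the members, 19 (38.8%) had a larger effect in the positive fraction, against 5.46% of all genes, and 1 (2.04%) a smaller one, against 1.42%. The members' median was 0.40, beside -0.02 over all genes. The 19 comprised 8 of the 14 core genes, 8 of the 17 19S genes, Psme1, Psme2 and Psmg4. Without animals 506 and 507 the count was 2 of 49, against 1.77% of all genes then, and without the Input LPS library of animal 507 it was 12, against 4.03%.

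Psmb8 was the member with the smaller effect in the positive fraction, by -1.26 (SE 0.23, 95% interval -1.75 to -0.77, adjusted p = 0.00279). Psmb9 had a difference of -0.85 that was not called (SE 0.34, 95% interval -1.57 to -0.13, adjusted p = 0.16). The PA28 genes went the opposite way, Psme2 by 0.91 (SE 0.21, adjusted p = 0.0126) and Psme1 by 0.54 (SE 0.15, adjusted p = 0.0302), and Psme1 lost its call in 11 of 30 alternatives and Psme2 in 1. Psmb10 had 0.32 (SE 0.16, 95% interval -0.02 to 0.66, adjusted p = 0.29). Among the constitutive catalytic subunits the differences were 0.38 (Psmb5, SE 0.15, adjusted p = 0.136), 0.57 (Psmb6, SE 0.18, adjusted p = 0.0581) and 0.34 (Psmb7, SE 0.15, adjusted p = 0.208), none of them called. That of Psmb6 was called in 9 of 30 alternatives, DESeq2 (adjusted p = 0.0273) and the replicate block (adjusted p = 0.0114) among them, and that of Psmb5 in 1. Those of Psme3, Psme4 and Psmf1 were 0.16, 0.32 and 0.08, also not called (adjusted p = 0.459, 0.353 and 0.858).

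Core genes with a called difference were Psmb3 (0.74), Psma1 (0.61), Psma7 (0.60), Psmb2 (0.58), Psma6 (0.58), Psma4 (0.50), Psma5 (0.50) and Psmb4 (0.47). In the 19S particle they were Psmd3 (0.55), Psmc4 (0.51), Psmd14 (0.49), Psmd12 (0.48), Psmc1 (0.44), Psmd13 (0.44), Psmd8 (0.43) and Psmd2 (0.41). The call was lost in 16 of 30 alternatives for Psmb4, in 15 for Psmd13, 14 for Psmd8, 12 for Psmc1 and 9 for Psmd3, and in at most 2 for each of the other 11 core and 19S genes named. Psmg4 reached 0.91 (adjusted p = 0.00849), with an input difference of -0.16 that was itself not called.

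Markers of other cells moved along with these comparisons. The summed level of 5 neutrophil markers was 126 to 329 in Input PBS, 321 to 1065 in Input LPS, 22.1 to 89.5 in Positive PBS and 234 to 843 in Positive LPS. All 3 that were tested were higher after LPS in both fractions, though Mmp8 among them passed the filter only through Input LPS. S100a8 was at 24.2, 5.71, 23.5 and 10.2 in Positive PBS and at 548, 382, 167, 599 and 377 in Positive LPS. The lowest of these LPS values, like that of the immunoproteasome genes, came from animal 270. All 5 oligodendrocyte markers fell after LPS in input (median -0.73, sums of 91297 to 144469 in PBS and 57712 to 85732 in LPS) and 2 of 5 in the positive fraction (median -0.32). Their median difference between fractions was 0.41, with none of the 5 called by edgeR and 1 at an unadjusted p under 0.05. The sum of 5 astrocyte markers was 37369 to 41112 in Input PBS and 51592 to 65728 in Input LPS, and 29343 to 37929 and 38986 to 54968 in the positive fraction, with 2 markers higher and 1 lower in input. Summed levels of 4 monocyte markers (262 to 445 in Positive PBS and 210 to 519 in Positive LPS) and of 5 endothelial markers (5487 to 8421 and 4826 to 8572) overlapped between treatments in the positive fraction. Single markers moved there all the same. Of 3 monocyte markers tested none was higher after LPS and 1 was lower, Ccr2, at 30.5 to 59.7 in PBS and 3.31 to 15.3 in LPS. Ccr2 passed the filter only through Positive PBS, so its entry into the test depended on a high level there. Of the 5 endothelial markers 1 was higher and 1 was lower, Flt1, at 1548 to 2470 in PBS and 691 to 1135 in LPS. In input the endothelial sum was 1925 to 3002 in PBS and 2812 to 4625 in LPS. The endothelial differences between fractions ran from -0.84 to -0.62 (median -0.81). None of these 5 was called by edgeR, and 4 were lower and none higher at an unadjusted p under 0.05. Of the 8 microglia markers, 2 rose and 3 fell after LPS in the positive fraction, with sums of 182258 to 224696 in PBS and 152832 to 211764 in LPS. The part of these markers in the proteasome results was not tested.

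Genes that work with the proteasome were counted as lists. Of 16 partners of the particle (ubiquitin receptors, shuttles, deubiquitinases and maturation factors), 2 (12.5%) were higher and 2 (12.5%) lower after LPS in the positive fraction, below the shares of all genes (19.0% and 14.9%). Higher were the 19S receptor Adrm1 (0.64) and the small lid subunit Shfm1 (0.61), and lower were Ubqln4, a ubiquitin shuttle that fell by 0.62, and Akirin2, which fell by 0.47 and is a factor for nuclear import of proteasomes. In input only Ubqln4 among them was called (fell by 0.48). Pomp, the maturation factor of the core, had a difference of 0.29 in the positive fraction and was not called. Of 7 ubiquitin and ubiquitin-activating genes, the fusion gene Rps27a rose by 0.88 and Uba6 fell by 0.72 in the positive fraction, and none was called in input with edgeR (1 at an unadjusted p under 0.05). The differences between fractions were called for Shfm1 (0.71) and Rps27a (0.82).

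Among the regulators of proteasome and MHC class I genes, Nlrc5, Irf1 and Irf8 rose in both fractions. Nlrc5, the transactivator of MHC class I genes, rose by 1.80 in the positive fraction and 3.02 in input, Irf1 by 0.66 and 1.03, and Irf8 by 0.72 and 0.84. Ddi2, the protease that activates the transcription factor Nfe2l1, was at 767, 622, 547 and 592 in Positive PBS and at 1191, 1090, 1437, 1625 and 1084 in Positive LPS, and its difference between fractions of 0.83 was called (adjusted p = 0.0247). The Positive LPS libraries lay above all other libraries of Ddi2, whose difference in the positive fraction was 1.02. Nfe2l1 itself, known to drive proteasome genes when degradation fails, had -0.15 and Nfe2l2, the oxidative stress regulator, 0.46 in the positive fraction, and neither was called.

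Of 8 peptide loading genes of the MHC class I pathway, 6 (75.0%) rose in the positive fraction, against 19.0% of all genes, and 5 (62.5%) in input, against 7.16%. The others were not called, except Calr, a chaperone, which fell by 0.54 in input. Tap1, the divergent neighbour of Psmb9, was at 330, 381, 370 and 360 in Positive PBS and at 998, 905, 1108, 1572 and 1092 in Positive LPS. In contrast to Psmb9 its groups lay far apart, with a difference of 1.65, and in input of 1.83. Erap1, a trimming peptidase, rose by 1.04 and 0.99, B2m, the light chain of MHC class I, by 0.70 and 0.82, and Tap2 by 0.57 and 1.02 in the positive fraction and in input. No gene of this list had a called difference between fractions with edgeR, and at an unadjusted p under 0.05 the effect was larger in the positive fraction for 2 and smaller for 1.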

How the data were processed

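RNA sequencing (directional library kit) was done on 18 libraries, input and positive fraction of 9 animals. According to the study's methods the authors trimmed the reads, aligned them with strand in Strand NGS to mm10, kept normally aligned reads and normalised with DESeq. The deposited raw columns hold estimated counts (81.1% of nonzero values not whole within 0.001), rounded here to whole numbers. The deposited normalised columns hold log2 values and served as an alternative. Precision rests on 22968939 to 35123345 counts per library. 3 counts, 8.54e-06 to 1.31e-05% of a library, were taken as the detection limit, for counting error only. 0 columns lacked a sample.

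Size factors of the DESeq kind (0.766 to 1.32, from 15766 genes) scaled 17 libraries. Genes over 20 normalised counts in every library of at least 1 group were tested (14803) with edgeR 4.0.16 (R 4.3.3, quasi-likelihood, 4 group means, 13 residual degrees of freedom), with Benjamini-Hochberg adjustment over all genes tested and 5 contrasts. A call needed an adjusted p under 0.05 and a fold change over 1.25. P-values measure the spread between libraries of a group. The main fit treated both fractions of an animal as independent, and only the replicate block alternatives used the pairing. Alternatives were DESeq2 1.42.0, limma 3.58.1 (voom, and the deposited log2 values), TMM and library total scaling, filters of 100 and of none, no fold threshold, sex, all 18 libraries, only the groups compared, leaving out animals 506 and 507, each library in turn, and the animal as replicate block. The pairing comes from the labels, since both fractions share an animal. Deviations from the group means correlated between an animal's fractions at 0.372 to 0.703 (5000 genes, 8 animals).

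Named with full statistics were the immunoproteasome set and Psmb5, Psmb6 and Psmb7. Also named were Psme3, Psme4, Psmf1, the 5 most raised and most lowered called members of each contrast, members with a called difference between fractions, and those against their role. The members and lists were chosen with earlier results of these data known. Transcript lengths came from GENCODE (49 of 49 members matched) and promoters from RefSeq. Levels were compared between genes per kilobase only. Of the list symbols, 4 partners and 1 monocyte marker were not found by symbol. Scripts were tested on simulated data. How reads shared by a gene and its pseudogene were assigned is not given in the sources used here. Some genes of the lists are not reported here.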

Additional observations from a re-analysis of the deposited data

Results flagged for a closer look

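For 11 genes (the immunoproteasome set, Psmb5, Psmb6, Psmb7, Psme3, Psme4 and Psmf1) 44 groups of a gene and a condition were checked for a library far from the rest, and 2 had one, where chance gives about 1 in 20 groups. Psme2 in Positive LPS had its lowest library at 2691 normalised counts (animal 270), away from the other 4 libraries at 3974 to 4343. Psmb5 in Positive LPS had its highest library at 5337 (animal 271), away from 4313 to 4569 in the rest.

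In 20 members the effects of LPS in the 2 fractions differed by the test of the interaction term, given here as the log2 effect in the positive fraction minus that in input. Psmb8 had -1.26. The other 19 were Psme2 (0.91), Psmg4 (0.91), Psmb3 (0.74), Psma1 (0.61), Psma7 (0.60), Psmb2 (0.58), Psma6 (0.58), Psmd3 (0.55), Psme1 (0.54), Psmc4 (0.51), Psma4 (0.50), Psma5 (0.50), Psmd14 (0.49), Psmd12 (0.48), Psmb4 (0.47), Psmc1 (0.44), Psmd13 (0.44), Psmd8 (0.43) and Psmd2 (0.41).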

How the results depend on the processing

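Of 159 results on single genes, 102 kept their direction and call under every alternative run, among them the 5 of Psmb8 (positive fraction 0.79 to 0.96, input 1.97 to 2.25, difference between fractions -1.41 to -1.12). Without animals 506 and 507 the members called were 2 higher after LPS in input, 15 higher and 1 lower in the positive fraction against input in PBS animals, and 2 with a larger LPS effect in the positive fraction. The 27 members enriched in PBS animals became 17 with library total scaling, 15 with all 18 libraries and 17 on the deposited log2 values. The shares of all genes were then 15.9%, 15.6% and 15.3%. These 3 settings moved the median over all genes in that comparison to -0.117, -0.117 and -0.13. A filter at 100 normalised counts, which dropped Psma8 and Psmb11, left 1 member lower in the positive fraction in each treatment.

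Leaving out each library in turn gave 35 to 41 members higher after LPS in the positive fraction, 3 to 5 in input, 19 to 29 higher and 1 to 2 lower in the positive fraction against input in PBS animals, 45 to 45 and 2 to 2 in LPS animals, and 12 to 22 larger and 1 to 1 smaller LPS effects. The 12 came without the Input LPS library of animal 507. With the animal as a fixed replicate block the counts were 28 and 2 in PBS animals, 45 and 2 in LPS animals, and 25 larger and 1 smaller effects. Of all genes 22.8% and 27.6% were then higher, and 8.90% had a larger effect. The animal as a random replicate block gave 39 members higher after LPS in the positive fraction, 4 in input and 26 larger effects. The shares of all genes were 18.1%, 7.06% and 9.28%. Under this block the Psmb9 call in input was lost (0.91, adjusted p = 0.108), and the Psme4 call in input was gained (0.34, adjusted p = 0.0455). The Psmb6 difference between fractions was called under the random block (0.51, adjusted p = 0.0114).

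Psmb6 in input turned from -0.01 to 0.00 with limma voom, 0.02 with library totals and the deposited log2 values, 0.04 with the random block and the sex term, and 0.01 with all 18 libraries, and spanned -0.08 to 0.11 over the libraries left out, including 0.05 and 0.01 without Input LPS 266 and 507. Psmb5 in input turned to 0.04 without Input PBS 272 and 0.00 without Input LPS 266, over a span of -0.12 to 0.04, and Psmf1 between fractions spanned -0.01 (without Positive LPS 270) to 0.16. The cause of these moves was not tested.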
